A study of Mus musculus with 7 samples.

Results

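Dlk1, Meg3 and 8 other imprinted genes known from islets were followed in sorted pancreatic beta cells of mice that were weaned early or were still suckling. The genes were Dlk1, Meg3, Rian, Mirg, Rtl1, Nnat, Peg3, Plagl1, Peg10 and Mest, and their probe sets were taken by gene symbol from the platform's annotation. Of the 10 genes, 9 had 1 probe set each that carried their symbol alone. Mirg was represented only by a probe set that also carries the symbol Mir410, and a further probe set carried the symbols AF357355, a small nucleolar RNA gene, and Rian. That made 11 of the 35556 probe sets on the array. The fit across genes held 19938 genes.

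The beta cells came from mice with a Cre recombinase driven by the insulin promoter and a Rosa26-LSL-YFP reporter, on the ICR strain background, and both groups carried the same alleles. The prematurely weaned group (3 mice) left the mother on postnatal day 18, and the suckling group (4 mice) stayed with her. All mice were sampled on postnatal day 25. Between 2000 and 6000 YFP-positive cells were sorted from each mouse, and each mouse gave 1 array, so that n counts mice. The comparison asks what early weaning changes in beta cell expression. The median deposited intensity per array lay between 14.1 and 14.9, and the number of arrays limits the precision of every value here.

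In an imprinted gene, only the copy inherited from the mother or only the copy inherited from the father is read. At the Dlk1-Dio3 locus the paternal copy gives the messenger RNAs of Dlk1, Rtl1 and Dio3, whereas the maternal copy gives the noncoding RNAs Meg3, Rian and Mirg together with a large group of microRNAs and small nucleolar RNAs. Many imprinted genes of this kind are highly active in fetal tissues and decline after birth. In human islets MEG3 is known as an abundant noncoding RNA.

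No member passed the test between weaned and suckling mice, and the arrays of both groups overlapped for every one of the 11 probe sets. Dlk1 was 1.69-fold higher in mean in weaned beta cells and Rian 1.36-fold higher, while Meg3 (suckling over weaned 1.21-fold), Peg10 (1.41-fold) and the probe set of Mirg and Mir410 (1.39-fold) were lower in mean in weaned beta cells. Of the 9 genes with a probe set of their own, 6 had a higher and 3 a lower mean in weaned mice. Their median log2 difference was 0.10, where that of all genes was close to 0. The split of signs differed with level. A higher mean in weaned mice was seen for 9992 of all 19938 genes. It was seen for 5804 of the 9969 genes at or above the median level (median log2 difference 0.04), where all of these members but Mest lie. The split of the members was not tested against these shares. In limma, with p-values adjusted by Benjamini and Hochberg's method across the whole gene table, 0 of the 9 were below 0.05, where 0.015% of all genes were. The same test over all probe sets called 0.00844%, none of them a member. At an unadjusted p under 0.05 limma gave 1 of 9, Rian, beside 7.58% of all genes. Groups of arrays that do not overlap were seen for 0 of 9, beside 7.32% of all genes.

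Sequences of the locus are shown first, because Dlk1 and Meg3 are read from opposite parental copies and had mean differences of opposite sign. A further reason is that the array holds probe sets for maternally read microRNA genes of the locus. Whether these read precursor transcripts, mature microRNAs or both is not stated on any label, so the mature sequences printed below are not shown to be measured. The promoter windows are from RefSeq on build GRCm38.p6, run from 250 bases before to 50 bases after the annotated start, and are written 5′ to 3′ on the strand of the gene. Dlk1 is at chr12:109452573-109452872 (+), Meg3 at chr12:109540746-109541045 (+) and Peg3 at chr7:6730370-6730669 (-). Capitals mark the motifs searched, the cyclic AMP response element TGACGTCA and the run GGGGCCCC, both of which read the same on either strand.
Dlk1: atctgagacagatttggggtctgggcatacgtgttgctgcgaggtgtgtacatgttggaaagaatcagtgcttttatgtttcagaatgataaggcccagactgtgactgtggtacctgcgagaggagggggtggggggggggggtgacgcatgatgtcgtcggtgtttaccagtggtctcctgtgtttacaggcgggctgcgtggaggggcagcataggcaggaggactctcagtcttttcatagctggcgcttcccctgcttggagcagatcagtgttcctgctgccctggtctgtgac
Meg3: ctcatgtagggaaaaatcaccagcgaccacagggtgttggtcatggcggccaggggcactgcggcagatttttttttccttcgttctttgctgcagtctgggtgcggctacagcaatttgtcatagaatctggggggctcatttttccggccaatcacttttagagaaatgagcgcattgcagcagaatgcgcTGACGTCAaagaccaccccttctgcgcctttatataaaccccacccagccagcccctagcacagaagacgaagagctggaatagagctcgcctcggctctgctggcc
Peg3: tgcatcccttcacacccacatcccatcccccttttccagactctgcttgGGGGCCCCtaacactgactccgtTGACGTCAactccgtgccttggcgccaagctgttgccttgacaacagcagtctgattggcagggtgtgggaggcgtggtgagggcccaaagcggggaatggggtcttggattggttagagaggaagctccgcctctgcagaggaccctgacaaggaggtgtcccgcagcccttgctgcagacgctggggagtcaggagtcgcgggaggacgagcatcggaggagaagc
The element TGACGTCA starts at position 194 of the Meg3 window and at position 73 of the Peg3 window, counted from the 5′ end. It is held by 1.8% of the 32544 promoter windows of the same length (586 windows). Of the 11 windows of the 8 members that have any, 2 hold it. The run GGGGCCCC was found in the Peg3 window and in 1.07% of all windows. The motifs were picked after these promoters had been read, so their presence is a description. The dinucleotide CG occurs 9 times in the Dlk1 window and 13 times each in the Meg3 and Peg3 windows, where the median of all windows is 7. Meg3 has a second annotated start, whose window holds 1 such dinucleotide, and the Rian window holds 0.

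The microRNAs below are examples from the locus, chosen for a shared seed, a shared probe set, a place opposite Rtl1, or a value given further on. They are again from RefSeq, with the seed (bases 2 to 8) in capitals.
miR-127-3p: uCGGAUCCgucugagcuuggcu
miR-379-3p: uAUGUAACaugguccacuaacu
miR-411-3p: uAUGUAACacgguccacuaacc
miR-667-3p: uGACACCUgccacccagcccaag
miR-410-3p: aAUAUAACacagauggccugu
miR-154-3p: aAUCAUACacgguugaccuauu
miR-127 is read antisense to Rtl1. miR-379-3p and miR-411-3p have the same seed. The gene of miR-410, Mir410, shares its probe set with Mirg. Among the 40 microRNA genes of the locus with a probe set, the 76 mature sequences held 74 different seeds, and 2 seeds were shared between genes.

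Dlk1 encodes a membrane protein with EGF-like repeats that acts as a noncanonical ligand in Notch signalling. Its log2 intensity was 6.21, 7.57 and 7.53 on weaned arrays 4, 5 and 12, against 5.40, 6.77, 6.76 and 6.47 on suckling arrays 2, 9, 11 and 12. A pair of weaned arrays thus lay above every suckling array, while weaned array 4 lay below 3 of the 4 suckling arrays, and suckling array 2 was the lowest of all. The means were 7.10 ± 0.77 in weaned mice (SD, n = 3) and 6.35 ± 0.65 in suckling mice (SD, n = 4). The log2 difference was 0.76 (SE 0.40, 95% interval -0.15 to 1.66, limma adjusted p = 0.70). It was 1.20 without weaned array 4 and 0.44 without suckling array 2, and the adjusted p was at least 0.549 under every alternative tried.

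Rtl1, a gene derived from a retrotransposon and needed in the placenta, is the other paternally read member at this locus. It had log2 values of 5.25, 5.01 and 5.01 on the weaned arrays, against 4.86, 5.01, 5.01 and 5.02 on the suckling arrays. On 4 of the 7 arrays the deposited value was the same to 4 decimals, and 16.6% of all probe sets have such equal values on at least 2 arrays. This left a log2 difference of 0.11 (SE 0.11, limma adjusted p = 0.85). It was 0.0325 without weaned array 4, 0.0745 without suckling array 2 and 0.0068 with the mesenchymal marker level as a covariate. Rtl1 has an antisense partner in the microRNA precursor transcript. No label states whether the labelling kept strand, so the labels do not settle whether signal of the 2 strands was kept apart.

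Meg3 is a maternally read long noncoding RNA. Its log2 intensity was 8.70, 8.78 and 8.91 on the weaned arrays, against 8.95, 8.97, 8.90 and 9.45 on the suckling arrays. The groups overlapped only through weaned array 12 and suckling array 11, whose values were nearly equal, and suckling array 12 stood above the rest. The means were 8.79 ± 0.11 in weaned and 9.07 ± 0.26 in suckling mice (SD), a log2 difference of -0.28 (SE 0.15, 95% interval -0.62 to 0.07, limma adjusted p = 0.72). Without suckling array 12 the difference was -0.15.

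Rian is a maternally read noncoding RNA that hosts clusters of small nucleolar RNAs. Its own probe set gave 6.10, 6.28 and 5.52 on the weaned arrays, against 5.47, 5.79, 5.43 and 5.41 on the suckling arrays. Weaned arrays 4 and 5 were the highest of the 7, and weaned array 12 lay below suckling array 9. Rian thus differed by 0.44 on the log2 scale (SE 0.19, 95% interval 0.02 to 0.86), with an unadjusted p of 0.041 and an adjusted p of 0.65 in limma. With 1 array left out the difference ranged from 0.29 to 0.66, and the unadjusted p was under 0.05 in 2 of these 7 fits. Over all 19 alternatives, some of which leave the difference unchanged and alter only its error, the unadjusted p was under 0.05 in 8. It was 0.058 after quantile normalization, and 0.060 both with array weights and in the fit over all probe sets. It was 0.11 with either the acinar marker level (difference 0.40) or the mesenchymal marker level (0.41) of each array as a covariate.

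The probe set shared by AF357355 and Rian had log2 values of 6.90, 6.56 and 6.11 on the weaned arrays, against 5.64, 6.6, 6.25 and 6.52 on the suckling arrays. Here weaned array 4 was the highest and suckling array 2 the lowest, with the others between 6.11 and 6.6. The log2 difference was 0.27 (SE 0.28, limma adjusted p over all probe sets 0.87). It was 0.0708 without suckling array 2, 0.0852 without weaned array 4 and 0.48 without weaned array 12, and 0.0524 with the acinar marker level as a covariate. Which of the transcripts gives this signal cannot be told from the array.

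Mirg is the maternally read host transcript of a microRNA cluster. The probe set that it shares with Mir410 gave 4.40, 4.65 and 4.89 on the weaned arrays, against 5.57, 4.40, 4.89 and 5.63 on the suckling arrays. Suckling arrays 2 and 12 were the highest, and the other suckling arrays lay within the range of the weaned ones. Suckling array 11 and weaned array 12 had the same value to 4 decimals. Weaned minus suckling gave a log2 difference of -0.48 (SE 0.32, 95% interval -1.23 to 0.27, limma adjusted p over all probe sets 0.82). It was -0.31 without suckling array 12, -0.33 without suckling array 2, -0.72 without suckling array 9 and -0.23 with the mesenchymal marker level as a covariate.

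**Figure D1:**
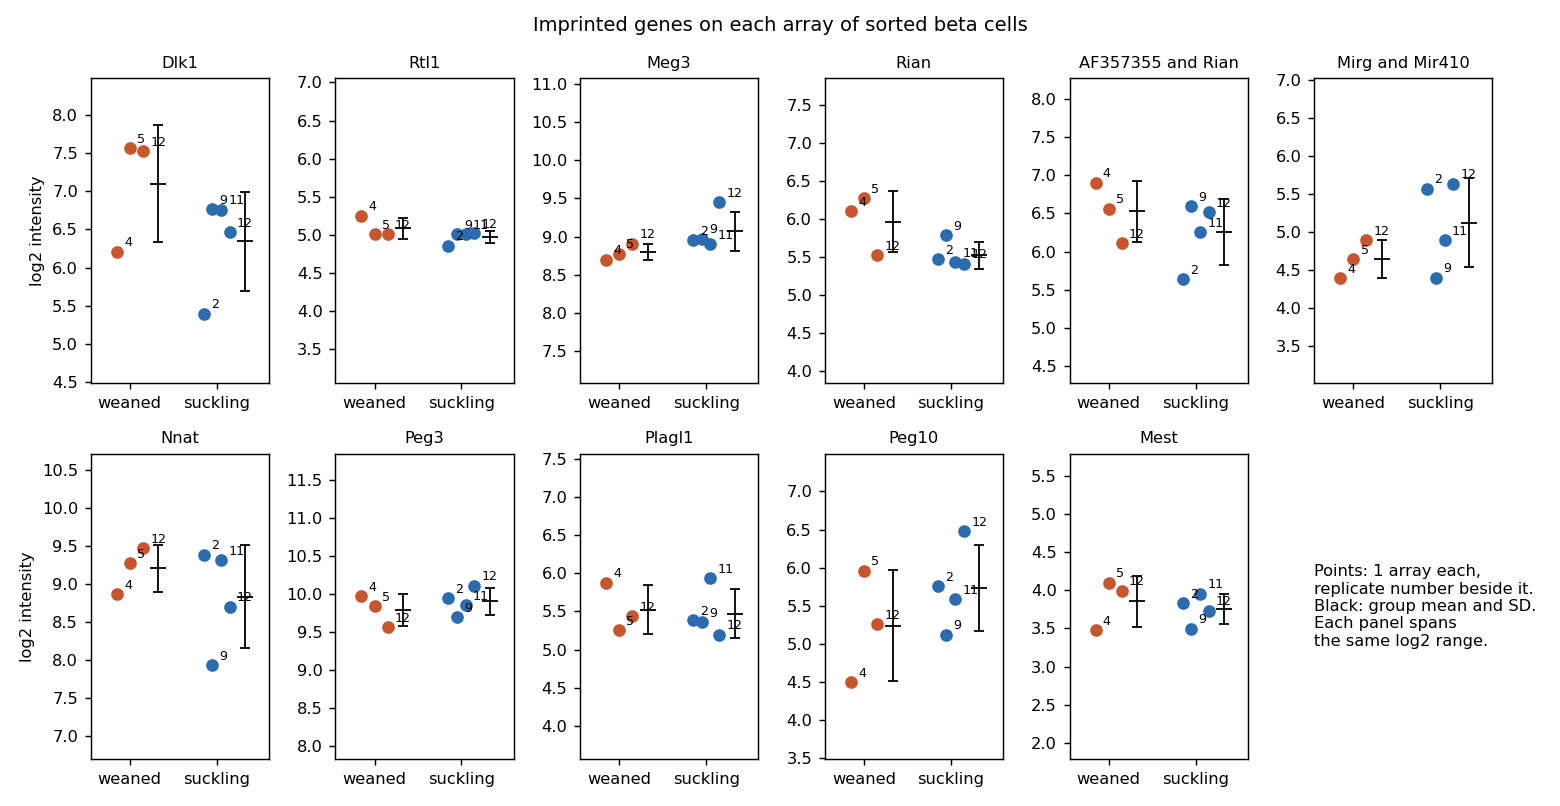
Log2 intensity of each member probe set on each array, with weaned mice on the left and suckling mice on the right of each panel; points are single arrays with their replicate number, and black bars give the group mean and SD. The groups overlap in all 11 panels, and Dlk1, Nnat and Peg10 are the most widely spread of the 9 genes with a probe set of their own.

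The neighbours of the members along the locus were weakly detected. A background range, as a stand-in for the level of a gene that is not expressed, was taken from Xist and the Y-linked genes Eif2s3y, Uty and Kdm5d. For each of them, the values under the middle of its log2 range were used, which does not ensure that they hold no signal. The sex of the mouse behind each array is not given here, and no fit had a term for sex. These 16 values lay between 1.8 and 3.15 on the log2 scale. A clean split of all 4 genes by sex over 7 arrays would give an odd number of values. The range is therefore not purely that of genes silent by sex. All 9 members stood above this range on all 7 arrays, as did 12731 of the 19938 genes. Mest came closest to the range, with 3.48 on weaned array 4. Begain, at the start of the locus, and Dio3, an enzyme that inactivates thyroid hormone, were at this level on several arrays, with log2 differences of -0.20 (SE 0.18) and -0.11 (SE 0.25).

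Of the 54 microRNA genes listed for the locus, 40 had a probe set of their own. Of these, 26 had a lower and 14 a higher mean in weaned mice (median log2 difference -0.06). Among all 19938 genes 9992 had a higher mean, and among the 9969 at or above the median level 5804 did. Lower means were thus more frequent among genes of low level. Of the 40, 19 lay within the background range on all 7 arrays, and 13 were above it on all arrays. Those 13 comprised 10 lower and 3 higher means, with a median of -0.07. None passed the adjusted test. In limma, 1 of the 40 had an unadjusted p under 0.05, beside 7.58% of all genes. It was Mir154, with a log2 difference of -0.34 (SE 0.12, adjusted p = 0.61) and means of 2.03 in weaned and 2.36 in suckling mice, within the background range. Mir380 and Mir382 followed in order of p, with means of 1.79 and 2.3 in weaned and of 2.24 and 2.73 in suckling mice, at or within the background range, so that their differences have no firm size. Mir667 had means of 6.87 in weaned and 6.94 in suckling mice, and Mir127 of 3.27 in weaned and 3.48 in suckling mice. Mir379 and Mir411, whose 3p products share a seed, had means of 1.59 and 1.43 in weaned mice and of 1.61 and 1.42 in suckling mice, at or under the background range. No label states whether these probe sets read precursor transcripts, mature microRNAs or both.

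**Figure D2:**
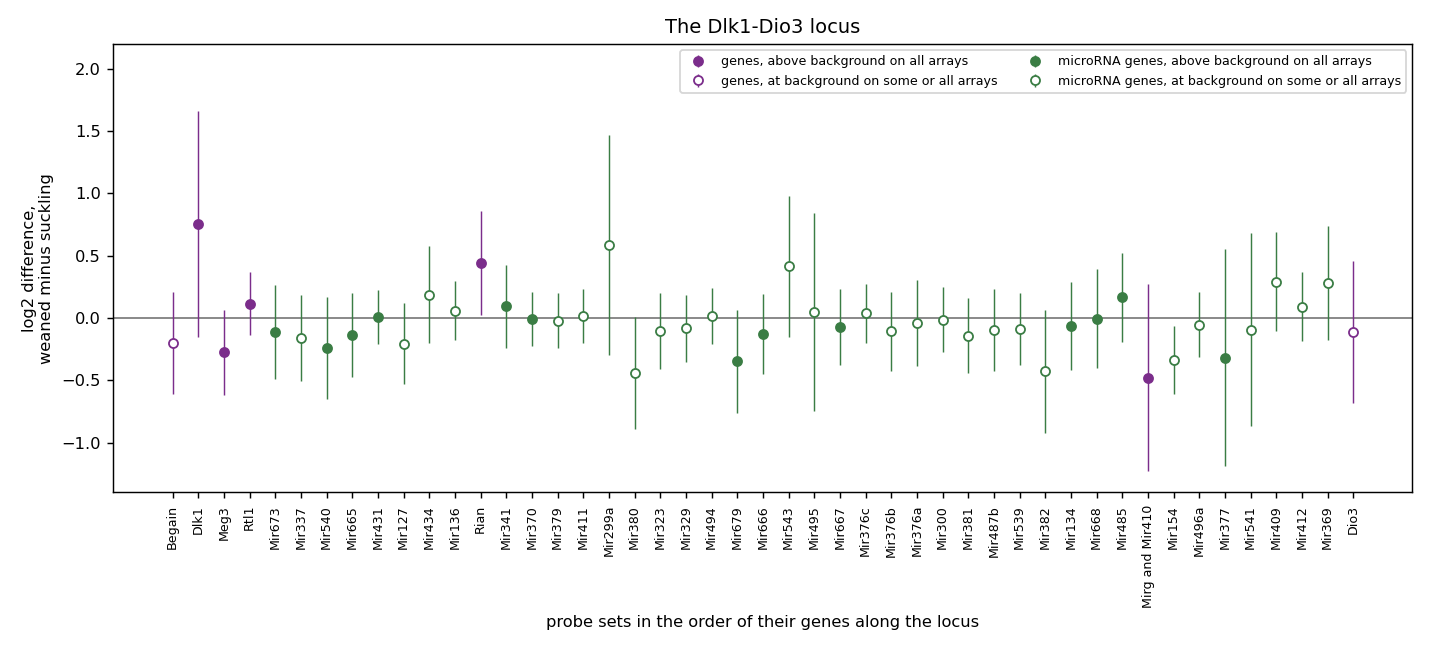
Log2 difference (weaned minus suckling) of each probe set of the Dlk1-Dio3 locus in gene order, with 95% intervals from limma; purple marks genes, green marks microRNA genes, and open symbols mark probe sets at background on some or all arrays. Dlk1 (0.76) and the probe set of Mirg and Mir410 (-0.48) lie at opposite ends of the members of the locus, and the intervals of most probe sets cross 0.

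Outside the locus, Nnat encodes a small membrane protein of the endoplasmic reticulum that is needed in beta cells for processing of preproinsulin. Its log2 intensity was 8.87, 9.28 and 9.47 on the weaned arrays, against 9.39, 7.94, 9.32 and 8.71 on the suckling arrays. Suckling array 9 lay below all others, and suckling arrays 2 and 11 were within the range of the weaned ones. The log2 difference was 0.37 (SE 0.33, 95% interval -0.36 to 1.10, limma adjusted p = 0.84), and 0.07 without suckling array 9. With the mesenchymal marker level of each array as a covariate it was 0.76 (unadjusted p = 0.041, adjusted p = 0.70 in limma).

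Peg3 encodes a zinc finger protein known for its part in maternal behaviour and cell survival. It had log2 values of 9.97, 9.84 and 9.56 on the weaned arrays, against 9.95, 9.70, 9.85 and 10.11 on the suckling arrays. The range over all arrays was 0.55, with weaned array 12 the lowest and suckling array 12 the highest. Peg3 had a log2 difference of -0.11 (SE 0.14, 95% interval -0.43 to 0.21, limma adjusted p = 0.89).

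Plagl1 encodes a zinc finger transcription factor whose excess is linked to transient neonatal diabetes in humans. Its log2 values were 5.88, 5.26 and 5.44 on the weaned arrays, against 5.39, 5.36, 5.94 and 5.19 on the suckling arrays. Each group held 1 higher array, weaned array 4 and suckling array 11. The log2 difference of 0.05 (SE 0.20, 95% interval -0.40 to 0.51, limma adjusted p = 0.97) changed sign under 6 of the alternatives.

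Peg10, which like Rtl1 derives from a retrotransposon, is known for its need in the placenta. Its log2 intensity was 4.50, 5.96 and 5.26 on the weaned arrays, against 5.76, 5.12, 5.58 and 6.48 on the suckling arrays. Weaned array 4 was the lowest and suckling array 12 the highest, 1.98 apart. The log2 difference was -0.50 (SE 0.37, 95% interval -1.32 to 0.33, limma adjusted p = 0.80), -0.13 without weaned array 4, -0.25 without suckling array 12 and -0.86 without weaned array 5.

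Mest encodes a membrane protein of the alpha/beta hydrolase fold linked in mice to growth of fat tissue. It had log2 values of 3.48, 4.10 and 3.99 on the weaned arrays, against 3.83, 3.50, 3.95 and 3.74 on the suckling arrays. The lowest arrays of each group, weaned array 4 and suckling array 9, were close to each other. Mest had a log2 difference of 0.10 (SE 0.17, 95% interval -0.29 to 0.49, limma adjusted p = 0.92).

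**Figure D3:**
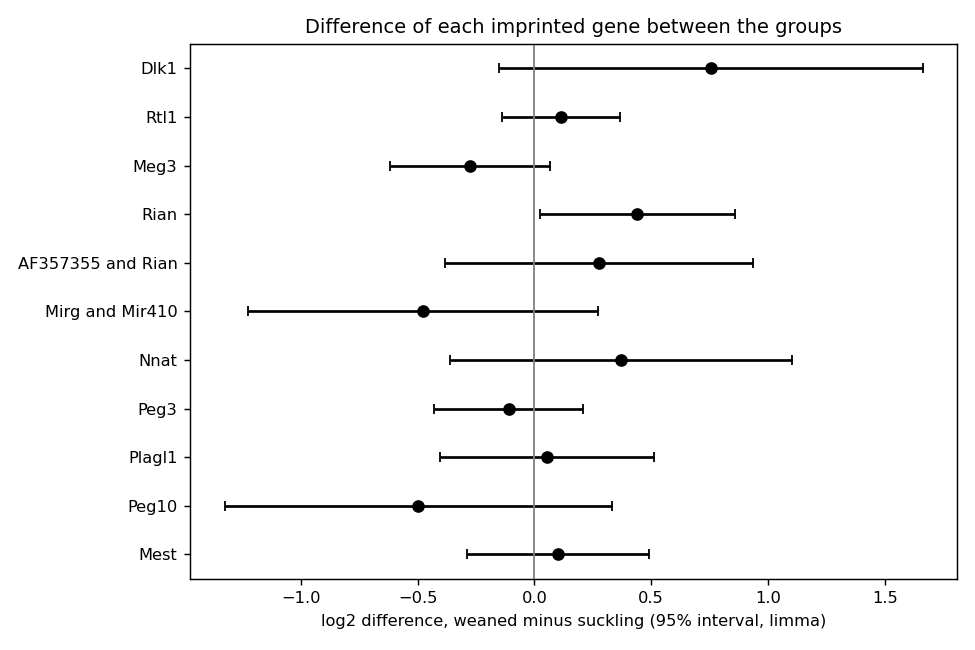
Log2 difference (weaned minus suckling) of each member probe set with its 95% interval from limma. The interval of Rian (0.02 to 0.86) lies above 0 and those of the other 10 probe sets cross it. Intervals of the 2 probe sets with several symbols are from the fit over all probe sets, and the other 9 are from the fit over genes. In the fit over all probe sets, Rian had an unadjusted p of 0.060 in limma.

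The members differed in how far mice of the same group lay apart. The within-group SD of the log2 values was 0.70 for Dlk1, 0.64 for Peg10 and 0.56 for Nnat. Only 0.341%, 0.502% and 0.928% of all genes had a larger one with all 7 arrays. In 6 of the 10 alternatives, among them 5 of the 7 that leave out 1 array, only 2 of these members stayed in the top 1% of genes by this measure. At the other end, Rtl1 had 0.11, Peg3 0.19 and Meg3 0.21, and 42.0% of all genes exceeded Meg3. Rtl1 had the same deposited value on 4 of the 7 arrays, which limits what its small SD says about the mice. Without suckling array 12 the SD of Meg3 was 0.079. The median over the 9 members was 0.28, against 0.19 over all genes. Dlk1 and Meg3, which lie next to each other, thus had very different spreads between mice. The low arrays were not the same ones: Dlk1 was lowest on suckling array 2, Peg10 on weaned array 4 and Nnat on suckling array 9. These 3 members stayed above the 95th percentile (0.39) after quantile normalization and after centring, whereas Nnat was below it without suckling array 9, alone or together with suckling array 2. Of the 42 other imprinted genes measured, 8 (19%) lay above the 95th percentile, namely Nap1l5, Rasgrf1, Zdbf2, Airn, Dio3, Zim1, Asb4 and Dcn (Dcn is also a mesenchymal marker), and 3 (7.14%) without suckling arrays 2 and 9. These counts are descriptions and were chosen after the values were seen.

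**Figure D4:**
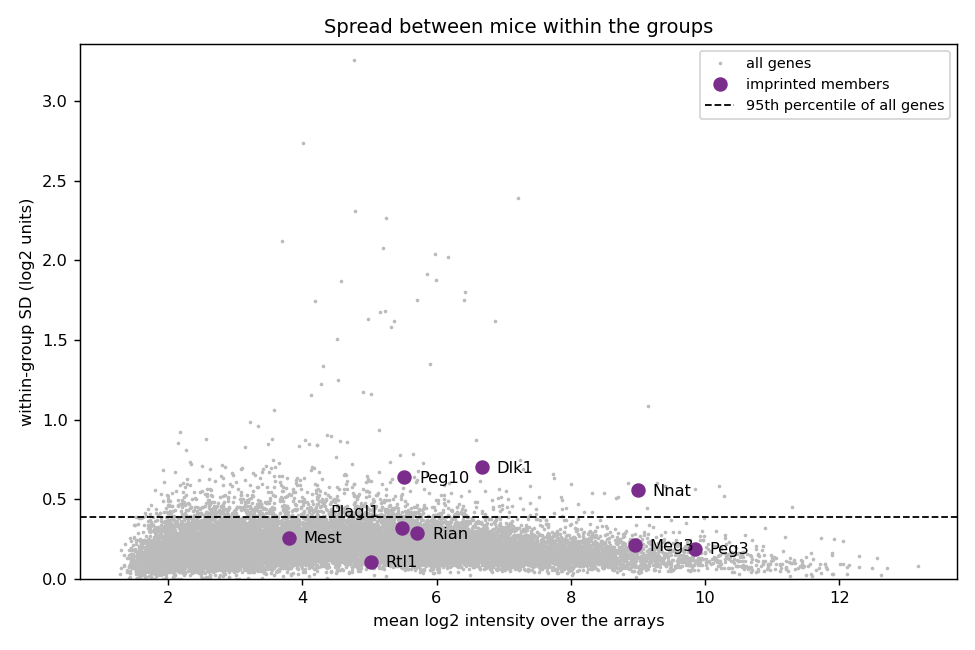
Within-group SD of the log2 values against the mean log2 intensity over the 7 arrays, for all genes (grey) and for the 9 members with a probe set of their own (purple); the dashed line is the 95th percentile of all genes. Dlk1, Peg10 and Nnat lie above the line and the other 6 members below it.

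Whether members vary together between mice was examined over the 7 arrays for all 36 pairs of the 9 genes. Correlations were positive in 16 pairs and negative in 20, and none passed adjustment over the 36 pairs. The smallest p that the exact permutation of the 7 arrays (5040 pairings) can give is 0.0002. It is larger for pairs with Rtl1, which had equal values on 4 arrays. Dlk1 and Meg3 had r = -0.16 (exact permutation p = 0.72, adjusted p = 0.99; rho = -0.14, exact p = 0.78), -0.07 without suckling array 2 and weaned array 5. With the group means removed, r was 0.24. Meg3 and Rian, both read from the maternal copy, had r = -0.64 (exact permutation p = 0.11, adjusted p = 0.86; rho = -0.64, exact p = 0.14), -0.73 without suckling array 12 and weaned array 4, and -0.39 with the group means removed. Nnat and Mest had the highest r of all pairs, 0.78 (exact permutation p = 0.033, adjusted p = 0.86; rho = 0.64, exact p = 0.14), 0.82 without suckling arrays 9 and 12, and 0.77 with the group means removed.

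Among the 9968 genes at or above the median level, those whose pattern over the 7 arrays was most like that of Dlk1 were Dnajc30 (r = 0.98), Josd1 (0.98) and E130309D02Rik (0.98), and 70 genes had r above 0.9. Josd1 had log2 values of 5.68, 6.18 and 6.06 on the weaned arrays, against 5.23, 5.81, 5.77 and 5.60 on the suckling arrays, so that weaned array 4 and suckling array 2 were the lowest of their groups, as for Dlk1. The genes most like Meg3 were Arhgap26 (r = 0.99), Atf6 (0.99) and Tmed5 (0.98), with 50 genes above 0.9. Arhgap26 had log2 values of 6.53, 6.55 and 6.66 on the weaned arrays, against 6.76, 6.74, 6.70 and 7.17 on the suckling arrays, with suckling array 12 the highest for both genes. The arrays are the shared points of these correlations, and the genes were chosen for their r, so no p is given.

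Of 53 other imprinted genes listed, 42 were measured, 20 with a higher and 22 with a lower mean in weaned mice (median log2 difference -0.02). None passed the adjusted test in limma, and 4 had an unadjusted p under 0.05, 1 higher and 3 lower, beside the 7.58% of all genes. Groups of arrays did not overlap for 2 of the 42, beside 7.32% of all genes. Gatm, the enzyme of the first step of creatine synthesis, had log2 values of 7.67, 7.49 and 7.36 on the weaned arrays, against 7.04, 7.0, 6.83 and 7.19 on the suckling arrays, a log2 difference of 0.49 (SE 0.13, limma adjusted p = 0.46) with no overlap. Impact, a regulator of translation, had 7.58, 7.54 and 7.56 on the weaned arrays, against 7.83, 7.86, 8.13 and 7.97 on the suckling arrays, a difference of -0.39 (SE 0.11, limma adjusted p = 0.52), also with no overlap. Nap1l5, a relative of nucleosome assembly proteins, was lower by a log2 difference of -0.93 (SE 0.36, limma adjusted p = 0.63), and its groups overlapped.

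Genes that set or keep imprints were split 7 higher and 7 lower among the 14 measured, and none passed the adjusted test. Groups of arrays did not overlap for 2 of the 14, beside 7.32% of all genes. Zfp42, a zinc finger gene of early embryos, had the smallest p, with a log2 difference of -1.13 (SE 0.23, limma adjusted p = 0.34). Its mean of 2.93 in weaned mice lay within the background range, against 4.06 in suckling mice, so the size of the difference is limited by background. Dnmt1, the maintenance DNA methyltransferase, had log2 values of 6.13, 5.89 and 6.34 on the weaned arrays, against 5.40, 5.59, 5.74 and 5.62 on the suckling arrays, a log2 difference of 0.54 (SE 0.14, limma adjusted p = 0.46) with no overlap. Ctcf, the insulator protein bound at imprinting control regions, followed with 0.26 (SE 0.15).

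Receptors, ligands and targets of Notch signalling, the pathway in which Dlk1 acts, were higher in mean in 10 and lower in 4 of 14 genes. Their median log2 difference was 0.07. Of the 9969 genes at or above the median level, 5804 were higher in mean (median 0.04). In limma, 0 of the 14 had an unadjusted p under 0.05, beside 7.58% of all genes. The smallest p-values were those of Dlk2, the paralogue of Dlk1 (-0.31, SE 0.16, adjusted p = 0.69), the ligand gene Jag2 (0.60, SE 0.32, adjusted p = 0.70) and the receptor gene Notch4 (-0.21, SE 0.13, adjusted p = 0.76).

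The arrays also differed in other cells' transcripts. The mean log2 level of 9 beta cell markers lay between 9.69 and 9.85 on weaned and between 9.71 and 9.82 on suckling arrays, with Iapp and G6pc2 the brightest. Gcg, the glucagon gene of alpha cells, had means of 11.9 in weaned and 12.1 in suckling mice, and Sst, of delta cells, had 11.8 in weaned and 12.0 in suckling mice. Pyy and Ppy, markers of pancreatic polypeptide cells, had 11.7 and 11.5 in weaned and 11.7 and 11.2 in suckling mice. The sorted cells thus held transcripts of other endocrine cells. In such sorted samples, fewer cells of a type and less RNA per cell cannot be told apart. The mean of 12 acinar markers was 3.83, 3.92 and 5.62 on weaned arrays 4, 5 and 12, against 7.27, 6.97, 4.19 and 4.8 on suckling arrays 2, 9, 11 and 12; 6 of the 12 stood above background on all arrays. The Dlk1 difference was 0.63 with the acinar level as a covariate (limma adjusted p = 0.93) and 0.49 without suckling arrays 2 and 9 (adjusted p = 0.94). The mean of 14 mesenchymal markers ranged from 3.25 to 3.48 on weaned and from 3.43 to 3.69 on suckling arrays, with 7 of them above background on all arrays, and the mean of 12 immediate early genes, a sign of handling stress, from 5.84 to 6.83 on weaned and from 5.67 to 6.18 on suckling arrays. Marker means of other cells spanned 5.88 to 6.13 on weaned and 5.88 to 6.57 on suckling arrays for 7 ductal genes, 3.26 to 3.48 on weaned and 3.2 to 3.54 on suckling arrays for 10 endothelial genes, 3.04 to 3.16 on weaned and 3.09 to 3.2 on suckling arrays for 12 leukocyte genes, and 3.93 to 4.1 on weaned and 3.96 to 4.11 on suckling arrays for 6 Schwann and neural genes. No marker gene of any list passed the adjusted test in limma. Their part in the members' values was tested only by covariates: the acinar level, the mesenchymal level, and the joint level of the alpha, delta and pancreatic polypeptide cell markers. With this joint level the log2 difference was 0.76 for Dlk1, -0.27 for Meg3 and 0.46 for Rian. Their adjusted p-values in limma were then 0.72, 0.73 and 0.64. A code in the array descriptions is different for the weaned and the suckling arrays, the labels do not explain it, and it cannot be told apart from the group.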

How the data were processed

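RNA of YFP-positive cells from 7 mice was measured on Affymetrix arrays, 1 array per mouse. The deposited intensity values are on a linear scale from 1.45 to 12755, and the authors made them with RMA and Partek 6.6, per the submitters' processing notes, which give no settings. Log2 of the deposited intensities was taken here, with no further normalization and no filter. Symbols came from the platform annotation: 21789 probe sets had 1 symbol, 1621 several and 12146 none. Where several probe sets named 1 gene (999 genes), the brightest stood for it. limma 3.58.1 in R 4.3.3 (lmFit and eBayes, two-sided, Benjamini-Hochberg, threshold 0.05) was fitted over 19938 genes, and over all 35556 probe sets for those with several symbols. The fits were checked on simulated data. Correlations were tested by exact permutation of the 7 arrays, two-sided. Differences are weaned minus suckling.

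Named genes were the 10 members, the 3 genes of each further list with the smallest p (for marker lists, the 2 brightest), and the 3 genes most correlated with Dlk1 and with Meg3. The members and lists were chosen with earlier results of these data known. Alternatives covered normalization, centring, variance prior, filters, probe set choice, array weights, marker covariates and left-out arrays.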

Additional observations from a re-analysis of the deposited data

Results flagged for a closer look

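Dixon's test of the lowest or highest of the 4 suckling arrays was run on 42 values, and 5 were past its critical value of 0.829, where chance gives about 1 in 20. Meg3 was 9.45 on suckling array 12, where the other suckling arrays lay between 8.90 and 8.97. Arhgap26, which was named for its likeness to Meg3, was 7.17 on the same array, against 6.70 to 6.76 on the others. Rian was 5.79 on suckling array 9, against 5.41 to 5.47. Rtl1 was 4.86 on suckling array 2, against 5.01 to 5.02. Dnajc30, named for its likeness to Dlk1, was 6.28 on suckling array 2, against 6.69 to 6.75. The genes chosen for likeness share their arrays' pattern by that choice. The weaned group of 3 was not tested.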

How the results depend on the processing

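Over 204 refits of the member differences, 195 kept their direction, none passed an adjusted p of 0.05 and the lowest adjusted p was 0.51. The signs of 7 of the 11 probe sets never turned. The variance prior, the level filters and the choice of probe set do not alter a member's log2 difference, so its sign was fixed in those refits. The log2 difference of Plagl1 turned to -0.0213 with array weights, -0.0781 with the acinar and -0.0743 with the mesenchymal covariate, -0.0413 without suckling arrays 2 and 9, and ranged from -0.12 to 0.21 with 1 array left out. Peg3 ranged from -0.20 to 0.0053 and Mest from -0.0201 to 0.293 with 1 array left out, and the probe set of AF357355 and Rian was -0.11 with the mesenchymal covariate. The r of Dlk1 with Meg3 was 0.24 with group means removed and ranged from -0.34 to 0.0025 with 1 array left out, and that of Dlk1 with Rian was -0.0555 and ranged from -0.0750 to 0.54.

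Genes past an adjusted p of 0.05 numbered 3, and 5 after quantile normalization, 6 after centring, 9 with an intensity trend and robust prior, 7 above the 25th percentile of level, 8 above the median level, 5 with probe sets averaged per gene and 0 without suckling arrays 2 and 9, with a range of 1 to 3 with 1 array left out and 7 at a threshold of 0.1. At an unadjusted p under 0.05 there were 1512, with 908 above the median level and 2333 over all probe sets. Groups of arrays did not overlap for 1460 genes, 883 above the median level, 3877 without suckling arrays 2 and 9, 2307 over all probe sets and 2046 to 3290 with 1 array left out. Of the genes at an unadjusted p under 0.05, 875 were higher and 637 lower, and 1184 and 434 after centring, which moves the median of all genes by 0.035. Mest was left out above the median level. No paired analysis was possible because the groups share only 1 replicate number. The checks of spread were added after the data were seen. With 3 and 4 mice, the 95% intervals of 10 of the 11 member probe sets include 0, and that of Rian excludes it in the fit over genes.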
